A study of Mus musculus with 6 samples.

Results

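Collagen genes were taken as every row whose gene symbol reads Col, a number, the letter a and a number, which gave 44 of the 22298 genes in the tables. By the structure of their proteins, 11 encode chains of fibrillar collagens, 8 encode chains found in basement membranes and 25 encode other collagens. RNA sequencing had been done on thymus cells of C57BL/6 mice from 2 genotypes with 3 libraries each, and no mouse was treated. Toxf/f mice, which carry floxed Tox alleles and no Cre, served as controls. In the Toxf/fCd4Cre mice, called Cd4Cre here, Cre recombinase is expressed from Cd4 regulatory sequences, so that floxed alleles are cut in cells that switch Cd4 on and in their descendants. No group had Cre beside an intact Tox gene, so the effects of Tox loss and of Cre cannot be told apart. Replicate 1 of each genotype was 4 weeks old and replicates 2 and 3 were 3 weeks old. Nothing in the labels says that each library is a separate mouse, so p-values measure the spread between these libraries only.

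Sample titles name double-negative thymocytes, precursors that carry neither CD4 nor CD8, while the extraction text names DN2 cells, an early subset of these, so the sorted population is not settled by the labels. The libraries held 14550593 to 16099023 estimated counts, of which collagen genes took 0.0703% to 0.113%. Tox itself was at 25.2 to 27.8 FPKM in the controls and 2.55 to 3.79 FPKM in the Cd4Cre libraries, where FPKM is a level scaled for transcript length and library size. The coreceptor transcripts Cd4 and Cd8a, which define later cells, stood at 296 ± 6.4 and 562 ± 13.8 FPKM (SD, n = 3) in the controls, above Kit, Cd44 and Il2ra, the DN2 markers, at 3.91, 12.5 and 22.7 FPKM. Control replicate 2 held 3740 counts of the Y-linked genes Kdm5d, Uty, Ddx3y and Eif2s3y and the other libraries 2 to 5. By these genes control replicate 2 alone held cells of a male, so the groups were not balanced for sex. The part of sex in the genotype differences was not tested.

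Collagens are proteins of 3 chains wound into a triple helix. Fibrillar collagens (types I, II, III, V, XI, XXIV and XXVII) assemble into the fibres of connective tissue and are made mainly by fibroblasts and other mesenchymal cells. Type IV collagen forms the sheet of basement membranes under epithelium and around vessels, and types XV and XVIII lie in the same zone. The remaining types attach to fibrils (the FACIT group), form beaded filaments (type VI) or other networks, anchor epithelium (type VII) or span the cell membrane. In the thymus, fibroblasts of the capsule and septa, vessels and epithelium lay down this matrix, and developing T cells are not known as a main source.

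RefSeq promoter windows (GRCm38.p6) were found for 35 of the 44 genes. The 250 bases before the annotated start are printed for the collagen gene with the highest level, Col3a1 (chr1:45311288-45311537, plus strand), for Col6a5 (chr9:105960644-105960893, minus strand), which lies in a row of neighbours with like values, and for Col23a1 (chr11:51289670-51289919, plus strand), which had the lowest fold change. Capitals mark matches on either strand to the TATA box, searched as TATAAA, to the CCAAT box, searched by those letters, and to the GC box, searched as GGGCGG. No matches overlapped in these windows.
Col3a1: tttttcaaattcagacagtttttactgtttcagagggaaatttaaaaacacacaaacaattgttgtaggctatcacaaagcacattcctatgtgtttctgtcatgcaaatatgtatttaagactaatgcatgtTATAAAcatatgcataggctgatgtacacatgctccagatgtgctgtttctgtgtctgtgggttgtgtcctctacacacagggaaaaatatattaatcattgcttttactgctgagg
Col6a5: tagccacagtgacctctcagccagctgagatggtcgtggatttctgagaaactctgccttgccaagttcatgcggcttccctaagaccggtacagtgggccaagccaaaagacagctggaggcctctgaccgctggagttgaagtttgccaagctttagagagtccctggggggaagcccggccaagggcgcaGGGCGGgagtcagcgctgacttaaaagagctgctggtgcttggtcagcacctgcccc
Col23a1: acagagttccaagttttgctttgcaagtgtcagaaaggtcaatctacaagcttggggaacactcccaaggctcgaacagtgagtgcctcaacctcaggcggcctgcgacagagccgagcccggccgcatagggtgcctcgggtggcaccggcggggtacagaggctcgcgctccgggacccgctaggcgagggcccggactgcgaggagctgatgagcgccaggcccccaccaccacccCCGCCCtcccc
The Col3a1 window had 35.2% G and C and the only TATAAA of the 3, beginning 117 bases before the start, while Col6a5 and Col23a1 had 58.8% and 66% G and C and 1 match each to GGGCGG, 57 and 11 bases before the start. GGGCGG was present in 22 of 38 collagen windows (57.9%) and in 32.7% of all 32851 windows, CCAAT in 34.2% and 33.8%, and TATAAA in 13.2% and 12.4%. These matches describe the windows only.

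Levels of collagen genes were spread over more than 3 orders of magnitude, and 17 had a mean of at least 1 FPKM. Col3a1, the chain of type III collagen found in reticular fibres, was the highest, at 41.2, 44.2 and 66.9 FPKM in control replicates 1 to 3 and 48.5, 34.7 and 50.2 FPKM in Cd4Cre replicates 1 to 3. Col4a1, a type IV chain of every basement membrane, followed at 24.2, 29.6 and 31.9 FPKM and 24.6, 25.5 and 19.3 FPKM. Neither gene separated the genotypes, and the lowest Col3a1 library (34.7 FPKM) lay above the highest Col4a1 library (31.9 FPKM). Col15a1, a vessel-associated collagen, had a mean over all libraries of 16.2 FPKM, Col6a1 13.7, Col4a2 12.3, Col6a2 12.1 and Col1a2 10.9 FPKM, and the ranges of these 5 genes over the libraries overlapped. Within libraries Col15a1 was above Col4a2 and Col6a2, and Col6a1 above Col6a2, in 6 of 6, while Col4a2 was above Col6a2 in 3 of 6. Col1a1, the partner of Col1a2 in type I collagen, was at 6.83 FPKM, and these 8 genes took 80.1% to 83.5% of all collagen FPKM in a library.

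The minor fibrillar chains Col5a1, Col5a2 and Col5a3, which set the width of type I fibres, had means of 3.97, 3.15 and 1.08 FPKM, and Col27a1 and Col11a2, best known from cartilage, 2.92 and 2.57 FPKM. Col2a1, the main collagen of cartilage, and its partner Col11a1 had 50 and 12 counts over all 6 libraries. Col17a1 and Col7a1, which fasten epithelium to its basement membrane, were at 0.543 and 0.26 FPKM. Of the 44 genes, 34 reached a total of 60 counts and also passed the filter on low counts. The 10 that did not (Col2a1, Col11a1, Col24a1, Col4a3, Col4a6, Col9a2, Col13a1, Col19a1, Col25a1 and Col28a1) had totals of 11 to 51 counts, and 4 of them had 0 counts in a library, which allows up to 3 counts or about 0.187 to 0.209 CPM (counts scaled to library size). Intervals and floors cover counting error only.

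**Figure D1:**
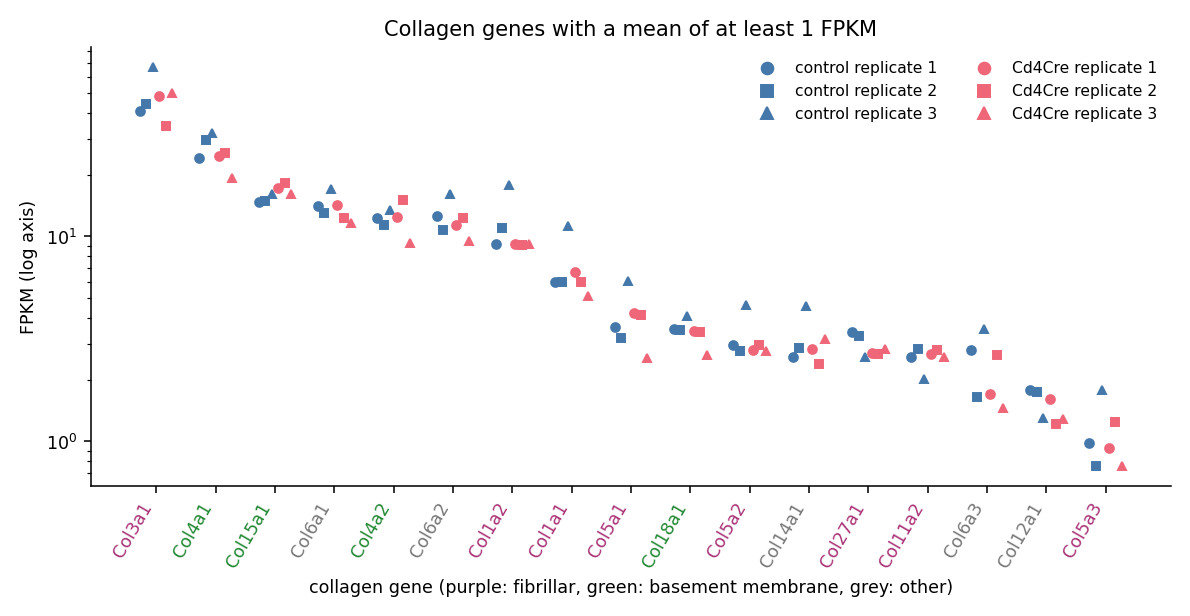
FPKM (log axis) of the 17 collagen genes with a mean of at least 1 FPKM, 1 point per library, ordered by their mean. Col3a1 is highest, and the triangle of control replicate 3 stands above the other points for Col1a1 (11.2 FPKM), Col1a2 (17.9 FPKM) and the other main fibrillar chains.

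Fibrillar collagens summed to 70.1, 74.2 and 113 FPKM in control replicates 1 to 3 and to 77.9, 63.6 and 76.1 FPKM in Cd4Cre replicates 1 to 3. Basement-membrane collagens summed to 55.4, 60.4 and 66.4 FPKM and to 58.4, 62.8 and 47.9 FPKM, and the other collagens to 42, 36.6 and 51 FPKM and to 38, 36.2 and 32.2 FPKM. The genotypes overlapped in each class. Fibrillar chains took 41.9% to 49.1% of collagen FPKM in the controls and 39.1% to 48.7% in the Cd4Cre libraries, and basement-membrane chains 28.8% to 35.3% and 30.7% to 38.6%. The ratio of fibrillar to basement-membrane FPKM was 1.27, 1.23 and 1.71 in the controls and 1.33, 1.01 and 1.59 in the Cd4Cre libraries, where replicate 3 of each genotype was the highest of its group. Mean ± SD of the fibrillar sum was 85.9 ± 23.9 and 72.5 ± 7.81 FPKM (n = 3), a log2 ratio of -0.24, and without control replicate 3 the ratio was 0.0079. For the basement-membrane sum the log2 ratio was -0.11 and for the other collagens -0.29, or -0.038 and -0.15 without that library. In bulk libraries such as these, fewer cells of a type and less RNA per cell cannot be told apart.

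**Figure D2:**
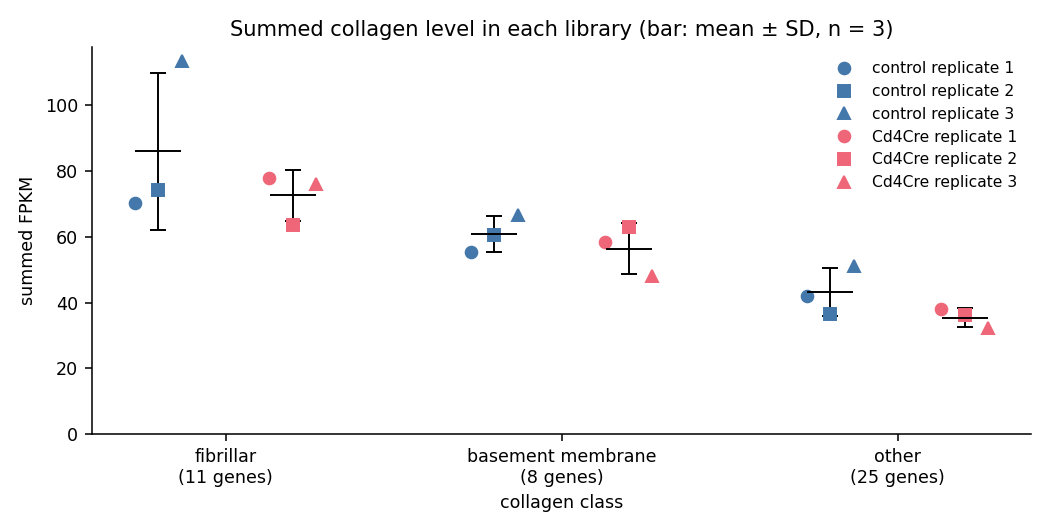
Summed FPKM of fibrillar, basement-membrane and other collagens, 1 point per library, with the mean and SD of 3 libraries. Control replicate 3 reaches 113 FPKM in the fibrillar class, and the genotypes overlap in each class.

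Control replicate 3 stood apart from the other libraries for the main fibrillar chains. Col3a1 was at 150, 158 and 286 CPM in control replicates 1 to 3 and at 167, 147 and 173 CPM in the Cd4Cre libraries. Col1a1 was at 35.1, 35.4 and 66.9 CPM and at 39.5, 35.7 and 30.8 CPM. Col1a2 was at 48.4, 58.2 and 96.4 CPM and at 49.1, 48.5 and 50.1 CPM. For each of these chains control replicate 3 was the highest library and the other 5 lay close together.

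A threshold of 1.4-fold, set after these values had been seen, was used to describe this. In control replicate 3, 9 of the 34 tested collagen genes were at least 1.4-fold above both other controls (Col1a1, Col1a2, Col3a1, Col5a1, Col5a2, Col5a3, Col6a3, Col14a1 and Col4a4), against 1.97% of the 13934 genes tested. The number was 1 (Col10a1) in control replicate 1 and 0 in control replicate 2, against 1.61% and 1.77% of all genes. It was 1 (Col16a1), 0 and 1 (Col8a1) in Cd4Cre replicates 1 to 3, against 1.94%, 2.46% and 2.86%. Control replicate 3 was as far below both other controls for 2 genes, Col7a1 and Col10a1, against 3.14% of all genes. Of the fibrillar genes, 6 of 8 tested exceeded the threshold, by 1.54-fold (Col5a1) to 2.09-fold (Col5a3) over the mean of the other controls, while Col27a1 and Col11a2 were at 0.804 and 0.757 of it. Col14a1, a FACIT collagen on type I fibrils, stood at 1.84-fold and Col6a3 at 1.62-fold. Col4a4 rested on 21 counts in that library and 8 and 9 in the others. Col4a1, Col4a2, Col15a1 and Col18a1 of the basement membrane were at 1.26-, 1.16-, 1.16- and 1.20-fold.

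Some fibroblast markers were also raised in this library. Of 18 tested markers 6 were at least 1.4-fold above both other controls (Dpt, Fbn1, Fn1, Mfap5, Fbln1 and Pi16), with Pi16, a marker of adventitial fibroblasts, at 6.82, 7.44 and 14.8 CPM and Fbn1, which encodes the microfibril protein fibrillin-1, at 24.3, 24.4 and 48.2 CPM in control replicates 1 to 3. Among endothelial, pericyte and smooth muscle and thymic epithelial markers it was 1 of 14 (Lyve1), 1 of 10 (Cspg4) and 0 of 14. These counts are to be read against 1.97% of all genes tested. Cspg4 rested on 22 counts in that library and 12 and 6 in the other controls. The summed fibroblast markers were at 196, 230.01 and 254 FPKM in the controls and 183 to 201 FPKM in the Cd4Cre libraries, and none of the 20 was at 0 in all libraries. The receptors Pdgfra and Pdgfrb, also on this list, were at 7.85, 4.64 and 7.32 CPM and at 13.7, 11.8 and 12.8 CPM in the controls, so that control replicate 3 was not their highest. Pdpn, Dpp4 and Postn were at 1.01-, 0.971- and 0.879-fold of the other controls. Dpp4, at 34.1, 35.0 and 33.05 FPKM in control replicates 1 to 3, is part of the summed markers, and its cell source was not tested. The part of fibroblast RNA in the collagen values of this library was not tested.

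**Figure D3:**
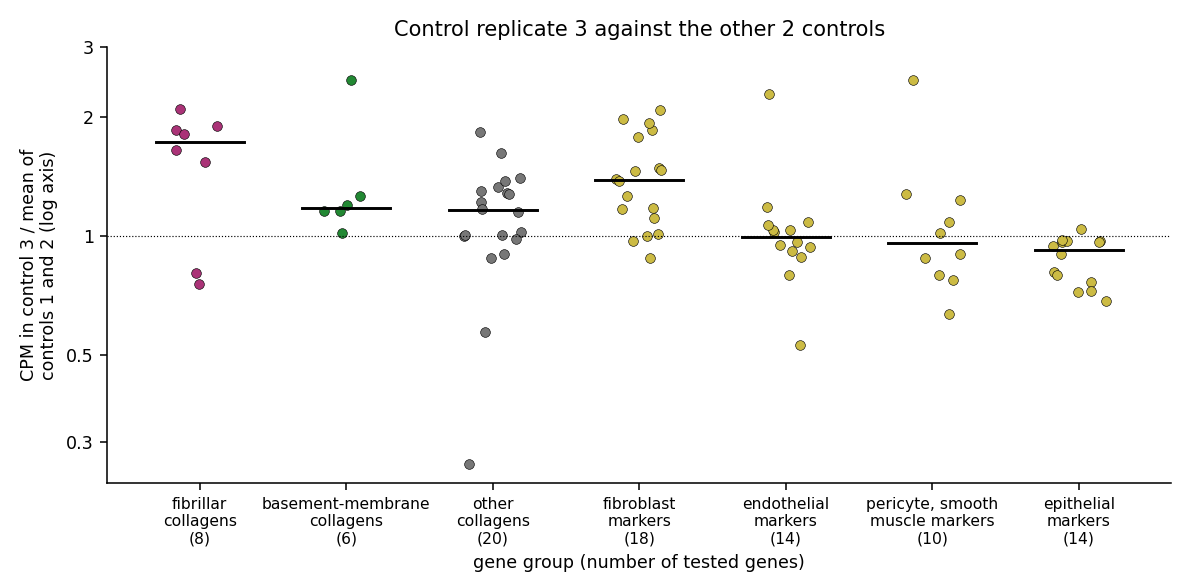
CPM in control replicate 3 divided by the mean of control replicates 1 and 2 (log axis), 1 point per tested gene, with the median of each group as a line. The median of the 8 fibrillar collagens is 1.73, that of the 6 basement-membrane collagens 1.18, and that of all genes tested 0.996.

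Between the genotypes, the question was which collagen transcripts change in mice with Cd4Cre and floxed Tox. Among the collagens Col23a1 and Col6a4 fell in the Cd4Cre libraries, none rose and 32 of the 34 tested did not pass an adjusted p of 0.05 (edgeR quasi-likelihood test with Benjamini-Hochberg adjustment over 13934 genes). That is 5.88% lower, against 4.11% of all genes called in either direction, 2.96% lower and 1.15% higher, and a count of 2 does not set the collagens apart from the other genes. The DESeq2 Wald test also called 2 lower and 0 higher. With limma on log2(FPKM + 0.1) or log2(FPKM + 1) 0 collagens passed, against 2.68% and 2.64% of all genes. In the 3-week libraries alone it was 0 (1.08%), without control replicate 1, 2 or 3 it was 1, 0 and 0 (2.19%, 2.1% and 2.92%), and without Cd4Cre replicate 1 it was 2 other genes, Col16a1 and Col6a5 (2.34%). Of the 34, 8 had an unadjusted p under 0.05 in the lower direction (9.0% of all genes) and 0 in the higher (7.33%). By CPM the groups did not overlap, with Cd4Cre lower, for 8 (10.6% of all genes), namely Col23a1, Col22a1, Col6a4, Col6a5, Col6a6, Col16a1, Col12a1 and Col17a1, and with Cd4Cre higher for 0 (11.3%). By FPKM, counted after the CPM values had been seen, it was 7 lower (11.2%) and 1 higher (8.78%). Col15a1 was higher and Col18a1 and Col20a1 were lower without overlap by FPKM alone, and Col6a4, Col22a1 and Col12a1 overlapped. Log2 fold changes were negative for 27 of 34 collagens and for 47.6% of all genes, with medians of -0.26 and 0.0097. The median was -0.28 for fibrillar, -0.17 for basement-membrane and -0.29 for other collagens. For all 44 collagens the log2 ratio of the summed FPKM was -0.21, and it was -0.043 without control replicate 3. The genes that passed the filter are those with enough counts and Col22a1 passed it through the controls alone, so these counts describe the tested genes and not the family.

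**Figure D4:**
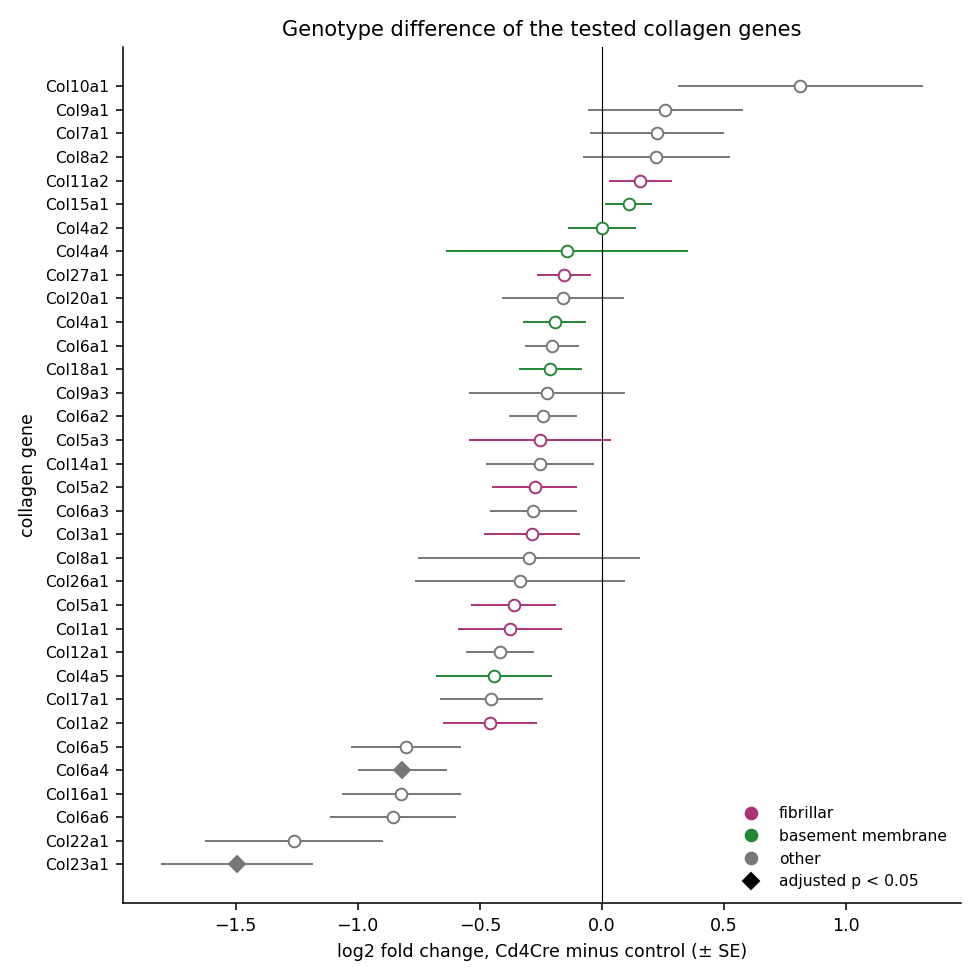
Log2 fold change (Cd4Cre minus control, ± SE) of the 34 tested collagen genes, coloured by class. Filled diamonds mark Col23a1 and Col6a4, which passed the threshold, and the fibrillar chains lie between -0.46 and 0.16.

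Col23a1 (ENSMUSG00000063564) encodes a collagen that spans the plasma membrane. It was at 2.57, 3.28 and 3.73 CPM in control replicates 1 to 3 (40, 48 and 56 counts) and at 0.633, 1.5 and 1.25 CPM in Cd4Cre replicates 1 to 3 (10, 24 and 18 counts). The highest Cd4Cre library was below the lowest control. Its level fell, with means of 3.19 ± 0.581 and 1.13 ± 0.445 CPM (SD, n = 3) and a log2 difference of -1.50 (SE 0.31, adjusted p = 0.0181 by edgeR, 0.00348 to 0.11 over the alternatives). Without control replicate 2 or 3 or Cd4Cre replicate 1 the adjusted p was 0.0738, 0.0852 and 0.0756, in the 3-week libraries alone 0.11 and by limma 0.105 and 0.0833. The other membrane-spanning collagen tested, Col17a1 of epithelial hemidesmosomes, was at 3.41 to 3.53 CPM in the controls and 2.06 to 2.91 CPM in the Cd4Cre libraries (log2 fold change -0.45, SE 0.21, edgeR adjusted p = 0.318).

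Type VI collagen is built from Col6a1, Col6a2 and a longer chain, which is Col6a3 or one of Col6a4, Col6a5 and Col6a6. Col6a4, Col6a5 and Col6a6 lie side by side on chromosome 9 in RefSeq with no other protein-coding gene between them. Col6a4 (ENSMUSG00000032572) was at 5.4, 4.58 and 4.99 CPM in the controls and at 2.85, 3.05 and 2.57 CPM in the Cd4Cre libraries, with no overlap. It fell, with means of 4.99 ± 0.413 and 2.83 ± 0.241 CPM (SD, n = 3; log2 difference -0.82, SE 0.18, edgeR adjusted p = 0.0261, 0.0236 to 0.736 over the alternatives). The adjusted p was 0.132, 0.0697 or 0.0828 without control replicate 1, 2 or 3, 0.0986 without Cd4Cre replicate 1, 0.355 in the 3-week libraries alone and 0.736 by limma on log2(FPKM + 0.1). Its deposited FPKM did not follow its counts, with 1.41, 0.62 and 0.76 FPKM in the controls and 0.88, 0.68 and 0.57 FPKM in the Cd4Cre libraries, and FPKM per CPM varied 2.28-fold between libraries. Exons of Gm36993 and Gm47575 overlap Col6a4 on the opposite strand in GENCODE M21, and without stated use of strand their reads cannot be told apart.

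Col6a5 was at 5.66, 4.92 and 6.19 CPM in the controls and at 4.24, 2.31 and 3.06 CPM in the Cd4Cre libraries (log2 fold change -0.80, SE 0.23, edgeR adjusted p = 0.0797). Col6a6 was at 5.14, 3.14 and 5.52 CPM and at 3.04, 2.62 and 1.95 CPM (-0.86, SE 0.26, edgeR adjusted p = 0.105). Exons of Gm38314 overlap Col6a6 on the opposite strand. In both genes every Cd4Cre library lay below every control, by a narrow margin in Col6a6, and neither passed. Col6a5 passed without Cd4Cre replicate 1 (edgeR adjusted p = 0.0424). The abundant chains had smaller differences that did not pass: Col6a1 was at 60.3 ± 9.27 and 52.4 ± 5 CPM (-0.20), Col6a2 at 52.4 ± 11.2 and 44.3 ± 5.25 CPM (-0.24) and Col6a3 at 18.4 ± 5.5 and 15.1 ± 1.66 CPM (-0.28). Control replicate 3 was 1.00-, 1.17- and 1.33-fold of the other controls for Col6a4, Col6a5 and Col6a6, against 1.29- and 1.62-fold for Col6a1 and Col6a3. The difference between these 2 sets of chains was not tested.

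**Figure D5:**
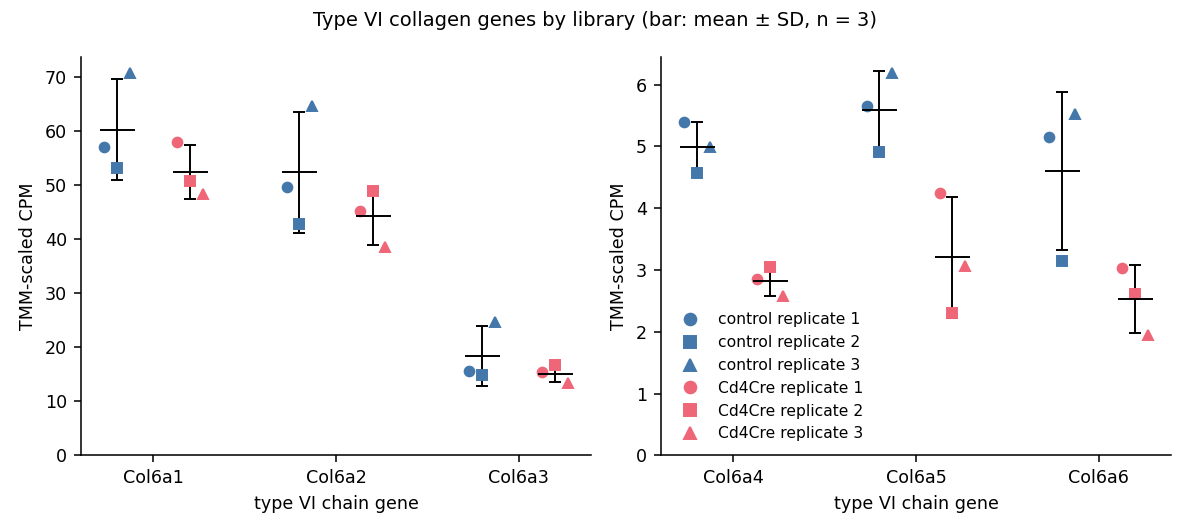
TMM-scaled CPM of the type VI chain genes, 1 point per library, with the mean and SD of 3 libraries. Col6a4, Col6a5 and Col6a6 (right) lie between 3.14 and 6.19 CPM in the controls and between 1.95 and 4.24 CPM in the Cd4Cre libraries, and Col6a1, Col6a2 and Col6a3 (left) overlap between genotypes.

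Among FACIT collagens Col16a1 was at 4.82, 4.44 and 5.66 CPM in the controls and at 3.86, 1.99 and 2.57 CPM in the Cd4Cre libraries (log2 fold change -0.82, SE 0.24, edgeR adjusted p = 0.0978, and 0.0403 without Cd4Cre replicate 1). Col22a1, found at junctions of muscle and tendon, had 15, 18 and 19 counts in the controls and 9, 7 and 6 counts in the Cd4Cre libraries (-1.26, SE 0.36, edgeR adjusted p = 0.0896). Exons of Gm16308 overlap Col22a1 on the opposite strand. Col12a1, which decorates type I fibrils, was at 15 to 17.7 CPM and at 10 to 14.4 CPM (-0.42, SE 0.14, edgeR adjusted p = 0.149). By CPM these 3 genes separated the groups without passing the test. By FPKM Col22a1 and Col12a1 overlapped, and FPKM per CPM of Col22a1 varied 3.18-fold between libraries. It varied by more than 1.5-fold for 5 of 34 collagens (Col16a1, Col22a1, Col5a1, Col6a3 and Col6a4). By CPM Col14a1, Col9a1, Col9a3 and Col20a1 overlapped between the groups, with log2 fold changes of -0.25, 0.26, -0.22 and -0.16. So did the network collagens Col8a1, Col8a2 and Col10a1 (-0.30, 0.22 and 0.81), the anchoring collagen Col7a1 (0.23) and Col26a1 (-0.33). Exons of Nt5dc1 overlap Col10a1 on the opposite strand. Col10a1, a product of hypertrophic cartilage, ranged from 0.2 to 1.03 CPM in the controls and from 0.696 to 1.27 CPM in the Cd4Cre libraries (3 to 20 counts).

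No fibrillar chain passed the test. The largest difference in this class was that of Col1a2 (log2 fold change -0.46, SE 0.19, edgeR adjusted p = 0.264, unadjusted p = 0.0363), which was -0.11 without control replicate 3. Col1a1, Col5a1, Col3a1, Col5a2 and Col5a3 had values of -0.38, -0.36, -0.29, -0.27 and -0.25. Without control replicate 3 those of Col1a1, Col5a1, Col3a1, Col5a2 and Col5a3 were 0.0020, -0.12, 0.074, 0.0077 and 0.19. Col27a1 was at 19 ± 2.34 and 17.1 ± 0.398 CPM (-0.16) and Col11a2 at 13.8 ± 2.19 and 15.4 ± 0.62 CPM (0.16).

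Basement-membrane chains did not pass either. Col4a1 was at 139, 135 and 174 CPM in the controls and at 131, 154 and 107 CPM in the Cd4Cre libraries (log2 fold change -0.19, SE 0.13). Col4a2 was at 78.1, 72.9 and 87.2 CPM and at 79.8, 97.4 and 60.9 CPM (0.0011, SE 0.14). For both genes Cd4Cre replicate 2 was the highest and replicate 3 the lowest of the Cd4Cre group. Col15a1 was at 53.4 ± 5.27 and 57.6 ± 6.08 CPM (0.11), Col18a1, the source of endostatin, at 18.5 ± 1.96 and 15.9 ± 2.3 CPM (-0.21) and Col4a5, a chain of kidney and epithelial basement membranes, at 3.55 ± 0.637 and 2.6 ± 0.581 CPM (-0.44, SE 0.24). Col4a4 had 6 to 21 counts per library (-0.14). By FPKM, Col15a1 was at 14.8 to 16.09 in the controls against 16.11 to 18.2 in the Cd4Cre libraries, and Col18a1 at 3.48 to 4.08 against 2.63 to 3.47, so that both separated the genotypes in this unit by a narrow margin and not in CPM.

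Chains that share a protein were compared per length. Type I collagen holds more alpha 1 than alpha 2 chains, and the ratio of Col1a1 to Col1a2 FPKM was 0.655, 0.549 and 0.626 in the controls and 0.725, 0.663 and 0.554 in the Cd4Cre libraries, below 1 in all 6. The ratio of Col6a1 to Col6a2 FPKM, chains that occur in equal number, was 1.00 to 1.25. Col4a1 and Col4a2, whose RefSeq starts lie 21 bases apart on opposite strands with overlapping exons in GENCODE M21, had a Col4a1 to Col4a2 ratio of 1.98, 2.61 and 2.37 in the controls and 1.98, 1.70 and 2.07 in the Cd4Cre libraries by FPKM, and the groups overlapped. By CPM, which is not scaled for length, the same ratio was 1.79, 1.86 and 1.99 in the controls. It was 1.64, 1.58 and 1.75 in the Cd4Cre libraries and did not overlap. Between libraries FPKM per CPM varied 1.32-fold for Col4a1 and 1.03-fold for Col4a2, so the units differ by more than a fixed length. The Col4a1 to Col4a2 ratio was chosen after its values were seen and got no test.

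Genes that make, cut or bind collagen are given next, and their counts are to be read against the 2.96% of all genes that were lower and the 1.15% that were higher. Of 31 tested genes of collagen biosynthesis and crosslinking, 1 fell and 30 did not pass (median log2 fold change -0.014). Plod2, a lysyl hydroxylase that prepares collagen for crosslinking, was at 14.6, 14.8 and 16.4 CPM in the controls and at 8.16, 9.29 and 10.9 CPM in the Cd4Cre libraries and fell by 0.70 on the log2 scale (SE 0.13, edgeR adjusted p = 0.0101). Its adjusted p was 0.0501 without control replicate 3, 0.0584 without Cd4Cre replicate 1 and 0.177 in the 3-week libraries alone. The most abundant members were Ppib, P4hb and Mia3, secretory-pathway proteins used by many cells, and the collagen-binding protein Sparc, with control means of 127, 94.9, 53.9 and 70.1 FPKM. Of 14 tested genes of degradation and uptake, 1 rose and 13 did not pass (median 0.059). Mmp2, the gelatinase of fibroblasts, was at 32.4, 32.8 and 33.1 CPM and at 44, 42.6 and 38.5 CPM and rose by 0.35 on the log2 scale (SE 0.083, edgeR adjusted p = 0.0382). That call ended without any 1 of the libraries other than Cd4Cre replicate 3, in the 3-week libraries (adjusted p = 0.531) and with an age term (0.075). Timp2, Mmp14 and Timp3 had control means of 29, 17.4 and 13.9 FPKM. None of 8 tested collagen receptors (Itgb1, Adgrg1, Ddr1 and Lair1 were the most abundant) and none of 14 tested partners in basement membranes (Lamc1, Lamb3 and Lama3 were among the most abundant) passed, with medians of -0.17 and -0.10.

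Markers of cells that lay down collagen are given beside the collagen values, again against 2.96% of all genes lower and 1.15% higher. Of 18 tested fibroblast markers, Fbln2, a matrix glycoprotein gene, rose (0.35, SE 0.081, edgeR adjusted p = 0.0319, and 0.183, 0.108 and 0.0952 without control replicate 1 or 2 or Cd4Cre replicate 1) and 17 did not pass (median -0.33). Over the alternatives the highest adjusted p of Fbln2 was 0.426. Fbln2 went against most of its list, where log2 fold changes were negative for 14 of the 18 (47.6% of all genes). Among the fibroblast markers Dcn, Dpp4, Postn and Bgn were the most abundant, at 58.2, 34.1, 35.6 and 16.6 FPKM in the controls. None of 14 endothelial markers passed (Pecam1, which T cells also express, Plvap, Cdh5 and Egfl7 were the most abundant). Of 10 pericyte and smooth muscle markers, 2 fell and 8 did not pass (median 0.021). Only 4 of the 10 had a negative log2 fold change, so the 2 falls do not stand for the list. Rgs5, a pericyte gene, was at 99.4, 110.4 and 80.9 CPM in the controls and at 44, 57.7 and 58.7 CPM in the Cd4Cre libraries (-0.86, SE 0.13, edgeR adjusted p = 0.00229, and 0.0658 in the 3-week libraries alone), and Tagln, an actin-binding protein of smooth muscle, had a change of -0.60 (edgeR adjusted p = 0.0434, and 0.0521 to 0.206 when control replicate 1, control replicate 2, Cd4Cre replicate 1 or Cd4Cre replicate 3 was left out). Over the alternatives the highest adjusted p of Tagln was 0.377. Acta2 and Mcam, also abundant among the pericyte and smooth muscle markers, did not pass. Thymic epithelial markers held 6 higher (Psmb11, Prss16, Krt5, Krt8, Krt18 and Pax1), 1 lower (Krt14) and 7 that did not pass of 14. In the 3-week libraries alone none of these 7 passed (edgeR adjusted p = 0.0859 for Psmb11 and 0.109 for Krt18). Prss16, Krt5, Krt8, Krt14 and Pax1 also lost the call when single libraries were left out, with a highest adjusted p of 0.115, 0.11, 0.216, 0.183 and 0.104. The summed level of the 14 markers was 942 to 1049 FPKM in the controls and 1168 to 1308 FPKM in the Cd4Cre libraries. Most of it came from Prss16, Krt18 and Krt8, with control means of 398, 237 and 164 FPKM. Log2 fold changes were negative for 3 of the 14, namely Krt14 (-0.63), Aire (-0.55, edgeR adjusted p = 0.0728) and Epcam (-0.0070), so the summed rise does not hold for each marker. Of 8 tested cartilage markers, Chad, whose product binds type II collagen, and Hapln1, the link protein of cartilage, rose from 22 counts each in the controls to 298 and 96 counts (3.72 and 2.07, edgeR adjusted p = 0.000116 and 0.00846). Both entered the test through the Cd4Cre libraries, since of the controls only replicate 2 (0.683 CPM for each) reached the filter's cutoff of 0.655 CPM. These 2 calls are therefore not set against the share of all genes. Acan (0.087), Comp (-0.27), Cilp, Cnmd, Prg4 and Sox9 did not pass and Snorc had no counts. The call of Hapln1 ended in the 3-week libraries alone (2.26, adjusted p = 0.0844) and by limma on log2(FPKM + 0.1) and log2(FPKM + 1), where its log2 difference was 1.31 and 0.33 (adjusted p = 0.0924 and 0.109). The log2 difference of Chad was between 1.88 and 4.02 over the alternatives and passed in each. The part of these cells in the collagen differences was not tested.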

How the data were processed

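For each of 6 libraries the authors deposited a table with an estimated count and an FPKM value per Ensembl gene. fastp 0.18.0, HISAT2 and StringTie 1.3.1 are named in the submitters' processing notes, while the sources used here give no counting program, genome build or use of strand. Per the file headers, these deposited estimated counts carry no normalization; 9.27% to 9.87% of values were not whole. The deposited FPKM were scaled by the authors for length and library size. Counts were rounded, filtered with filterByExpr (minimum count 10, minimum total 15), scaled by TMM and tested with the edgeR 4.0.16 quasi-likelihood test in R 4.3.3, two-sided, with Benjamini-Hochberg adjustment over 13934 genes and a threshold of 0.05, after a check on simulated data. SE were derived from the F statistic. Collagen genes with a total of at least 60 counts are named with values. In each companion list the genes past the threshold and the 4 most abundant are named, except 1 gene that is not reported here. Other genes named were chosen after their values were seen. The collagens and lists were chosen with earlier results of these data known. Alternatives used DESeq2 1.42.0, limma 3.58.1 on log2(FPKM + 0.1), other scaling, an age term, a replicate block, subsets of libraries and no filter. Libraries of a group differed by more than counting noise (mean chi-square per gene 3.42 to 20).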

Additional observations from a re-analysis of the deposited data

How the results depend on the processing

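Over all genes 572 passed, and 151 did in the 3-week libraries alone and 298 to 1269 when 1 library was left out. Of the collagens 2 passed, and 0 did with limma on log2(FPKM + 0.1), 0 with limma on log2(FPKM + 1), 0 in the 3-week libraries alone and 0 to 2 when 1 library was left out; the cause was not tested. With a replicate block 1 collagen (Col23a1) and 440 of all genes passed, and Col6a4 did not (edgeR adjusted p = 0.0702). Same-numbered libraries deviated from their group means with correlations of 0.0849, -0.11 and -0.0426, so the numbers were not taken as pairs. Differences of collagens that did not pass changed sign in 19 cases. Col4a2 was at -0.00081 with DESeq2 size factors, -0.0092 with library totals, -0.0042 with DESeq2, -0.034 and -0.030 with limma (pseudocounts 0.1 and 1), -0.019 with the replicate block, -0.015 in the 3-week libraries and -0.17 to 0.16 when 1 library was left out. Leaving out 1 library gave -0.45 to 0.074 for Col3a1, -0.54 to 0.0020 for Col1a1, -0.41 to 0.0077 for Col5a2, -0.46 to 0.10 for Col14a1, -0.49 to 0.19 for Col5a3, -0.97 to 0.054 for Col8a1 and -0.42 to 0.43 for Col4a4. The other comparisons of a collagen gene with an alternative gave the same direction and call in 473 cases, a lost call in 14 and a gained call in 2, and over all genes named the call was lost in 85 cases. Leaving out 1 library gave log2 ratios of -0.37 to 0.0079 for the fibrillar sum. For the basement-membrane sum they were -0.19 to -0.0028 and for the other collagens -0.39 to -0.15. The fibrillar control mean was 85.9 FPKM, or 72.1 FPKM without control replicate 3, where the SD was 23.9 FPKM in the controls and 7.81 FPKM in the Cd4Cre libraries. Without Col4a1 the log2 ratio of the basement-membrane sum was 0.047. Depth limits the collagens under 60 counts, none of which passed when the filter was dropped.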
